A study of Mus musculus with 4 samples.

Results

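The genes of cilium transport were followed in RNA-seq libraries of the mouse lens. They were chosen by symbol alone: the numbered *Bbs*, *Ift*, *Tctn* and *Nphp* genes, *Arl3*, *Arl6*, *Arl13b*, *Kif3a*, *Kif3b*, *Kif17*, and a set of named genes of the transition zone and of cargo delivery. This gave 48 genes of the 14924 in the deposited table, and all 48 were among the 14780 genes that were tested. RNA came from whole lenses of 1-month-old mice on a C57BL/6 J background, with 2 libraries of mice that lack *S100A4* in every cell (*S100A4*-/-) and 2 libraries of wild type (WT) littermates. Each library was a pool of 6 to 12 lenses, and whether a pool held lenses of males, females or both is not given in the sources used here. The deposited value of a gene is its read number over the size factor of its library. A single read was worth 0.856 and 1.01 in *S100A4*-/- replicates 1 and 2, and 1.04 and 1.09 in WT replicates 1 and 2. Values are given below in this order. The libraries held 81602367 and 74108017 reads on genes in *S100A4*-/- and 70253985 and 68038158 in WT. The deleted gene, *S100a4*, was at 14.6 and 18.2 in *S100A4*-/- lenses against 14420 and 14385 in WT lenses, so each library matched its label. The fiber markers *Mip* (651160, 650078, 711929 and 703652, in the order *S100A4*-/- then WT) and *Bfsp1* (666795, 700675, 707403 and 720617) were high in all 4 libraries.

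A primary cilium is a single antenna-like projection built on a centriole. Its axoneme is assembled and maintained by intraflagellar transport, in which trains of IFT-B and IFT-A proteins are carried outward by kinesin and back by a dedicated dynein. The BBSome, a coat-like complex, rides on these trains and removes membrane proteins from the cilium. The transition zone at the base acts as a gate, and small GTPases of the Arl family release lipid-modified proteins from the carriers Unc119 and Pde6d inside it. Lens epithelial and fiber cells carry primary cilia, while the outer segment of a photoreceptor is itself a modified cilium joined to the cell by a connecting cilium. Cilium transport thus serves cells of both tissues. Which lens cells use these genes was not tested, and retina was not measured here.

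None of the 48 cilium transport genes was 2-fold higher or lower in *S100A4*-/- lenses, while *Unc119* and *Rpgrip1* rose by smaller amounts. The call used here is at least a 2-fold change at a Benjamini-Hochberg adjusted p of at most 0.05, by limma on log2(value + 1), over all genes tested. By this rule 3.65% of all genes were higher and 0.0744% lower, against 0 of the 48 in either direction. Count tests on the reads recovered from the values also called 0 of the 48 higher, where edgeR called 553 genes (3.74% of all) and DESeq2 421 (2.85%). At any fold size, 2 of the 48 (4.17%) rose by limma, beside 5.62% of all genes, and 0 fell, beside 1.33%. An unadjusted p under 0.05 was found for 6 of the 48 (12.5%), beside 17.7% of all genes tested.

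The log2 fold changes of the 48 genes lay between −0.26 (*Rpgr*) and 0.72 (*Bbs12*), with a median of −0.03 and quartiles of −0.09 and 0.07. All genes tested had a median of −0.01 and quartiles of −0.11 and 0.15. A log2 fold change within 0.3 of zero was found for 91.7% of the cilium transport genes and for 76.0% of all genes. The median of the mean value over the 4 libraries was 318 for the 48 genes and 314 for all genes tested. Both *S100A4*-/- libraries lay above both WT libraries for 6 of the 48 genes (12.5%), beside 23.7% of all genes. They lay below both WT libraries for 11 (22.9%), beside 23.2%, and the groups overlapped for the other 31. For 46 of the 48 genes the 95% confidence interval of the fold change, taken gene by gene, lay within 2-fold of no change, *Bbs12* and *Kif17* being the exceptions. For 42 it lay within 1.5-fold, and *Unc119*, *Tctn1* and *Rpgr* were among the further exceptions. The median SD of replicates over the 48 genes was 0.09 in *S100A4*-/- and 0.06 in WT on the log2 scale.

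**Figure D1:**
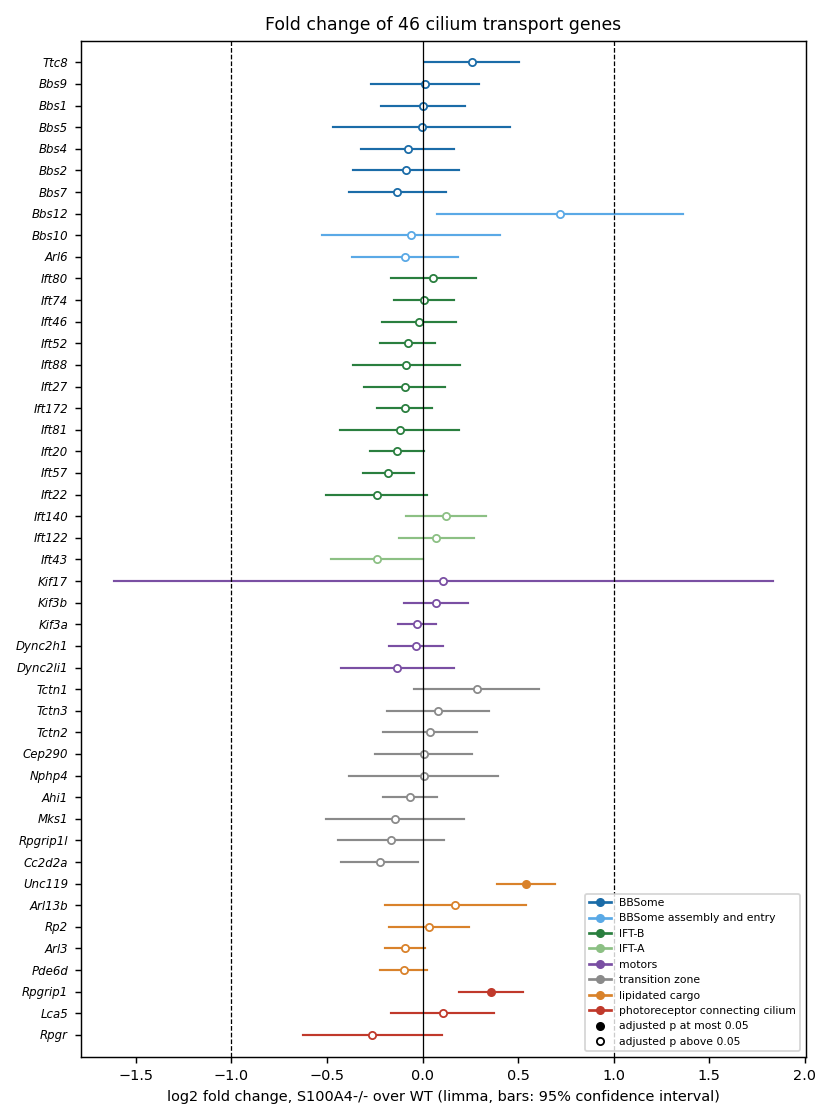
Log2 fold change of 46 of the 48 cilium transport genes, *S100A4*-/- over WT, with its 95% confidence interval by limma (2 libraries a group), coloured by role. Dashed lines mark 2-fold, filled points an adjusted p of at most 0.05. *Unc119* (0.54) and *Rpgrip1* (0.36) are the filled points, and *Kif17* has the widest interval.

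*Unc119* encodes a carrier that hides the lipid tail of myristoylated proteins, among them the alpha subunit of transducin, on their way to the cilium. It lies on chromosome 11 of GRCm38 from 78343482 to 78349164. Its values were 1184 and 1200.0 in *S100A4*-/- and 846 and 794 in WT, from 725 to 1383 reads a library. Both *S100A4*-/- libraries stood above both WT libraries. The means were 1192 ± 11.1 (SD, n = 2) and 820 ± 36.7 (SD, n = 2), a log2 fold change of 0.54 (SE 0.07, limma, adjusted p = 1.10e-06), or 1.45-fold with a 95% interval of 1.31 to 1.62. edgeR gave an adjusted p of 3.99e-07 and DESeq2 2.67e-06. When limma was fitted with no trend of variance with expression, the adjusted p was 0.104. Its paralog *Unc119b*, which is outside the rule, was at 3175 and 3150 against 3007 and 2977, a log2 fold change of 0.08 (SE 0.05, limma, adjusted p = 0.473). The difference between the paralogs was not tested.

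*Rpgrip1* encodes the scaffold that anchors Rpgr in the connecting cilium of photoreceptors. It lies on chromosome 14 from 52110704 to 52163546. Its values were 1002 and 871 in *S100A4*-/- and 744 and 714 in WT. The groups did not overlap, and the *S100A4*-/- libraries differed from each other by more than the WT libraries did. The means were 936 ± 92.9 (SD, n = 2) and 729 ± 21.6 (SD, n = 2), a log2 fold change of 0.36 (SE 0.08, limma, adjusted p = 0.00302). The rise was 1.28-fold, with a 95% interval of 1.14 to 1.44. The adjusted p was 0.00171 with edgeR and 0.0308 with DESeq2. It was 0.306 without the trend of variance, and 0.245 without *S100A4*-/- replicate 1, where the log2 fold change was 0.26 and the lone library is assumed to vary like the WT pair. Exons of *Rpgrip1* share 1057 bases with exons of *Supt16* on the opposite strand, and whether reads were counted by strand is not given in the sources used here. *Supt16*, a subunit of a histone chaperone, was at 679.9 and 738 in *S100A4*-/- and at 682 and 752 in WT, a log2 fold change of −0.02 (limma, adjusted p = 0.951).

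The other genes of the connecting cilium among the 48 did not pass the test. *Rpgr*, the GTPase regulator that gives Rpgrip1 its name, was at 126 and 110.5 against 138 and 146, a log2 fold change of −0.26 (limma, adjusted p = 0.480). *Lca5*, which encodes the ciliary protein lebercilin, was at 271 and 237 against 241 and 229.9, with 0.10 (limma, adjusted p = 0.756). *Rpgrip1l*, the paralog of *Rpgrip1* that serves the transition zone of many cell types, was at 253 and 237 against 237 and 319, so its groups overlapped, with −0.16 (limma, adjusted p = 0.590).

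Genes that mark rods moved with *Unc119* and *Rpgrip1*. Of 23 rod marker genes, all of them tested, 21 were called higher by the 2-fold rule (3.65% of all genes), with a median log2 fold change of 1.98. The study had picked 21 of the 23 from these same libraries, so the list is not independent evidence of its direction. The summed value of the list was 22224 and 21657 in *S100A4*-/- against 8978 and 9339.5 in WT. Its most abundant gene, *Gnb1*, a G protein beta subunit that many cells use, was at 5899 and 5874 against 5044 and 5263. The 6 defining rod genes (*Gnat1*, *Nrl*, *Nr2e3*, *Sag*, *Pde6a* and *Pde6b*) were all called higher, and none of them was at 0 in any library. The rise in the mean value was 372 for *Unc119* and 207 for *Rpgrip1*. It was 1249 for *Prph2*, which encodes a disc rim protein, and 545 for its partner *Rom1*. In bulk RNA, more cells of a type and more RNA per cell cannot be told apart, and the part of the rod genes in the rise of *Unc119* and *Rpgrip1* was not tested.

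Other marker lists were set beside the same 2 genes. Of 11 cone genes, 5 were called higher, with a summed value of 623 and 592 against 328 and 354, *Thrb* being the most abundant. Of 10 genes of bipolar cells 5 were called higher (3443 and 3254 against 2386 and 2343, led by *Prkca*), and of 10 of Müller glia 5 (97528 and 99183 against 85792 and 86619.7, led by *Dkk3*). The study had named 4 of the 10 Müller glia genes from these same libraries, and 1 each of the bipolar and ciliary body lists, so these lists are not fully independent of them. Of 11 genes of the ciliary body epithelium 5 were called higher (14513 and 13803 against 9386 and 10127, led by *Gja1*). For the pigment epithelium and melanocytes it was 6 of 10 (2589 and 2568 against 1311 and 1409, led by *Mitf*). The leading gene is the most abundant of its list, not the one that rose most. The log2 fold changes were 0.20 for *Thrb*, 0.04 for *Prkca*, 0.03 for *Dkk3*, 0.15 for *Gja1* and −0.15 for *Mitf*. None of these passed at any fold by limma, and both *S100A4*-/- values of *Mitf* were below both WT values. Among immune and vessel genes, 4 of 8 macrophage genes (349 and 292 against 121 and 109, led by *Csf1r*) and 2 of 7 endothelial genes (495 and 508 against 249.6 and 304, led by *Flt1*) were called higher. Of the defining genes tested, 3 of 5 cone, 1 of 3 bipolar and 2 of 4 Müller glia genes were called higher. It was 2 of 2 for the ciliary body, 2 of 3 each for pigment and macrophage genes, and 1 of 3 for endothelial genes (*Kdr*). The defining bipolar gene *Cabp5* was at 186 and 215 against 242 and 245, with −0.29 (limma, adjusted p = 0.276). No defining gene of these lists with a row in the table was at 0 in any library. The macrophage gene *Adgre1* had 3 and 1 reads in WT, beside 12 and 16 in *S100A4*-/-. Of the genes called in these lists, 3 reached the minimum value of 10 through the *S100A4*-/- libraries alone, so a difference in that direction was built into their selection. *Gngt2* of the cone list had 26 and 19 reads against 3 and 2 in WT. *Mlana* of the pigment list had 28 and 26 against 1 and 2, and *Kdr* of the endothelial list 87 and 60 against 9 and 9. Leaving them out, 4 cone, 5 pigment and 1 endothelial genes were called. *Gngt2*, *Mlana* and *Adgre1* were at 3 reads or fewer in both WT libraries, taken here as not showing a gene. DESeq2 called 21 of the rod genes, but 0 of the cone, 3 of the bipolar and 1 of the macrophage genes. Genes of multiciliated cells, which carry motile cilia, had 7 of 17 listed genes in the table, with 0 of 7 called in either direction by limma, edgeR or DESeq2, and 0 of 7 had an unadjusted p under 0.05 by limma, with sums of 291 and 251 against 270.4 and 244. Their regulator *Foxj1* was at 15.4 and 28.4 against 32.4 and 9.85, so its groups overlapped. *Rsph1*, a protein of the radial spokes of motile cilia that also reached the minimum value only in *S100A4*-/-, was at 18.0 and 13.2 against 7.31 and 4.38, with both *S100A4*-/- values above both WT values and a log2 fold change of 1.29 (SE 0.65, limma, unadjusted p = 0.0543, adjusted p = 0.295). The log2 fold change was above zero for 6 of the 7. The part of these other cell types in the values of the cilium transport genes was not tested. Of 14 lens fiber genes and 7 lens epithelium genes, 0 were called by the 2-fold rule with limma, edgeR or DESeq2, and 2 of the 14 and 4 of the 7 had an unadjusted p under 0.05 by limma, beside 17.7% of all genes. For 7 of the 14 and 2 of the 7, both *S100A4*-/- libraries lay below both WT libraries, beside 23.2% of all genes. They lay above both for 1 of the 14 and 3 of the 7, beside 23.7%. At any fold, limma and edgeR found *Slc38a3*, an amino acid transporter of the epithelium list, higher (log2 fold change 0.23, limma, adjusted p = 0.0261). Of the fiber genes, limma found 0 lower, edgeR 2 (*Mip* and *Crygs*) and DESeq2 1 (*Mip*), with log2 fold changes by limma of −0.12 for *Mip* and −0.11 for *Crygs*.

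The promoters of the 2 genes that rose are shown because the factors Crx and Otx2, which act in the retina, bind a TAATCC core, and TGCTGA is part of the sites that Nrl binds. They are from the RefSeq promoter table on GRCm38.p6, reach from 250 bases before to 50 bases after an annotated start, and are written 5′ to 3′ on the gene's strand. Capitals mark TAATCC or TGCTGA on either strand, and no 2 matches overlap. *Unc119* has 3 annotated starts, and its first promoter, chr11:78343245-78343544, holds neither motif. The promoter of the second start holds TAATCC and that of the last start TGCTGA.
Rpgrip1, chr14:52110653-52110952, plus strand: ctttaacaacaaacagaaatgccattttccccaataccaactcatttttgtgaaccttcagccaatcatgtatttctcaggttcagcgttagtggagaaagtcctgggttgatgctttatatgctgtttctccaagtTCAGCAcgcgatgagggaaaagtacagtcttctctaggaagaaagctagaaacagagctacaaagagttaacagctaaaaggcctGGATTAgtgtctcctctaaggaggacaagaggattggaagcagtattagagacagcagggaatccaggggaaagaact
Unc119, second start, chr11:78345334-78345633, plus strand: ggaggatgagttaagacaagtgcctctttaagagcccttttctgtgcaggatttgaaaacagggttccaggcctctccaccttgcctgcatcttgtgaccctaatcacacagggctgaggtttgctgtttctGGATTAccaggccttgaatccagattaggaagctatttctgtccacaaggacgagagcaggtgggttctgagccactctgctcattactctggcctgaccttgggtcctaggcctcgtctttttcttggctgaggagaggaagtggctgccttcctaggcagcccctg
Unc119, last start, chr11:78346460-78346759, plus strand: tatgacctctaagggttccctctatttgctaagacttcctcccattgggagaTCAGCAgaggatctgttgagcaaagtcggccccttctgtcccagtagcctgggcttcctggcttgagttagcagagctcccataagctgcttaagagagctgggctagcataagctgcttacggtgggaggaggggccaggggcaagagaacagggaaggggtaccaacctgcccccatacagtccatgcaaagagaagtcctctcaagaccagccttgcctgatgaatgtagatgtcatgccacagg

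A promoter was found for 42 of the 48 genes, with 50 promoters in all. TAATCC on either strand was in 3 of the 50 (6%), in *Bbs1*, *Rpgrip1* and *Unc119*, and in 7.06% of the 32851 promoters of the table. TGCTGA was in 10 of the 50 (20%), *Rpgrip1* and *Unc119* included, and in 19.5% of all promoters. A match describes the letters in a window and does not show a bound site.

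*Unc119* belongs with 4 other genes of lipidated cargo, and these 4 did not pass the test. *Arl3*, the GTPase that makes Unc119 and Pde6d let go of their cargo, was at 3809 and 4129 against 4291 and 4164, a log2 fold change of −0.09 (SE 0.05, limma, adjusted p = 0.378). Both *S100A4*-/- values were below both WT values, by a margin smaller than the difference between the *S100A4*-/- libraries. *Pde6d*, the carrier of prenylated proteins, was at 2105 and 2029 against 2113 and 2315, with −0.10 (limma, adjusted p = 0.431). *Rp2*, which switches Arl3 off, was at 437 and 424 against 441 and 399.6, with 0.04. *Arl13b*, which activates Arl3 within the cilium, was at 148 and 127 against 111 and 134, with 0.17 (limma, adjusted p = 0.696), and its groups overlapped. The summed value of the 5 genes was 7683 and 7908 in *S100A4*-/- and 7802 and 7806 in WT.

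**Figure D2:**
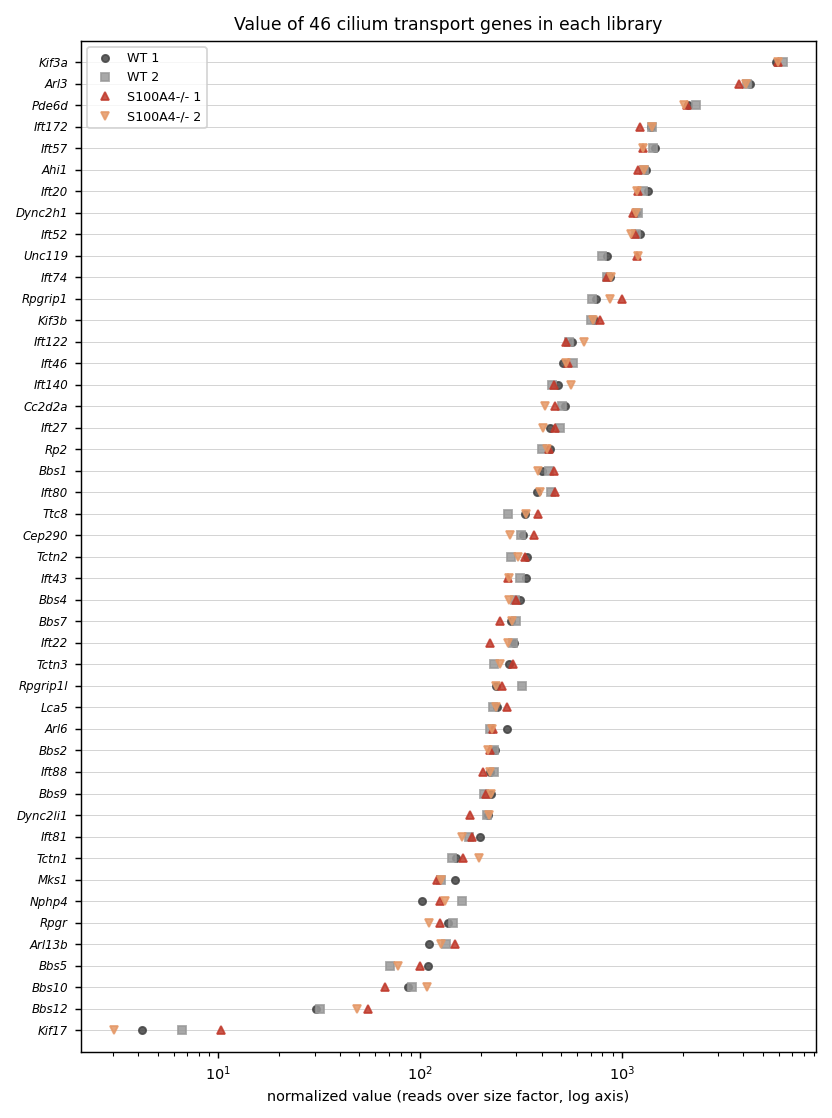
Normalized value (reads over size factor, log axis) of 46 of the 48 genes in each of the 4 libraries, ordered by mean value. *Kif3a* is at the top (5811 to 6280.3) and *Kif17* at the bottom (3.04 to 10.3). For *Unc119* and *Rpgrip1* the *S100A4*-/- triangles lie to the right of both WT symbols.

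The 7 genes of BBSome subunits gave 0 calls in either direction at any fold, by limma, edgeR or DESeq2 at an adjusted p of 0.05, and 1 of them had an unadjusted p under 0.05 by limma. Their summed value was 1921 and 1798 in *S100A4*-/- and 1894 and 1811 in WT. *Bbs1*, the highest by value, was at 462 and 382 against 402 and 437, and *Bbs5*, the lowest, at 99.3 and 78.0 against 109.6 and 71.2. The groups overlapped for both, and their log2 fold changes were 0.0044 and −0.0049 (limma, adjusted p = 0.990 and 0.995). *Ttc8*, also known as Bbs8, was at 382 and 335 against 329.95 and 272, a log2 fold change of 0.26 with an unadjusted p of 0.0403 (limma, adjusted p = 0.249). *Bbs2*, *Bbs4*, *Bbs7* and *Bbs9* lay between −0.13 and 0.01.

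Of the genes that fold and recruit the BBSome, *Bbs12* had the largest fold change among the 48 by the main test. Under quantile normalization its log2 fold change was 0.45, below that of *Unc119* at 0.54. Bbs12 and Bbs10 are chaperonin-like proteins that help to assemble the complex, and Arl6 brings it to the membrane. At any fold 0 of the 3 passed by limma, edgeR or DESeq2, and 1 had an unadjusted p under 0.05 by limma. *Bbs12* was at 54.8 and 48.6 in *S100A4*-/- and at 30.3 and 31.8 in WT, from 29 and 29 reads in the WT libraries and 64 and 48 in the others. Both *S100A4*-/- libraries were above both WT libraries, and the log2 fold change was 0.72 (SE 0.32, limma, adjusted p = 0.210) with a 95% interval of 0.07 to 1.36. *Bbs10* was at 66.8 and 108 against 86.7 and 90.9, so its groups overlapped, with a log2 fold change of −0.06. *Arl6* was at 230.4 and 228 against 269 and 221, with −0.09 (limma, adjusted p = 0.803).

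The 11 genes of IFT-B gave 0 calls in either direction at any fold by limma, edgeR or DESeq2, and 1 of them had an unadjusted p under 0.05 by limma. Their log2 fold changes lay between −0.24 (*Ift22*) and 0.06 (*Ift80*), and 9 of the 11 were below zero. Of all genes tested 51.2% were below zero. When all libraries were brought to equal totals, 8 of the 11 were below zero, beside 43.6% of all genes, and under quantile normalization 10, beside 58.1%. The median of all genes moved from −0.01 to 0.02 and −0.03. *Ift57*, which is needed for stable trains, was at 1276 and 1269.9 against 1452 and 1429, a log2 fold change of −0.18 (SE 0.07, limma, unadjusted p = 0.0113, adjusted p = 0.113). Both *S100A4*-/- libraries lay below both WT libraries for *Ift57*, *Ift20*, *Ift22* and *Ift52* (4 of the 11, beside 23.2% of all genes). They lay above both for 0 of the 11, beside 23.7%. *Ift20*, which also works at the Golgi, was at 1199 and 1187 against 1350.1 and 1268, with −0.13 (limma, adjusted p = 0.317). *Ift172*, the highest by the mean over all 4 libraries though below *Ift57* in WT, was at 1226 and 1411 against 1394 and 1411, with −0.09, and *Ift81*, the lowest, which binds tubulin together with Ift74, at 182 and 161 against 197 and 175, with −0.12. *Ift88*, the subunit whose mutation first linked cilia to kidney cysts, was at 205 and 222 against 221 and 231, with −0.09. The summed value of the 11 genes was 7793 and 7841 in *S100A4*-/- and 8338 and 8330.0 in WT.

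Of IFT-A, the return trains, 3 genes were covered by the rule. At any fold 0 of them passed by limma, edgeR or DESeq2, and 0 had an unadjusted p under 0.05 by limma. *Ift122* was at 528 and 646 against 566 and 545, with 0.07, and *Ift140* at 459 and 561 against 480.3 and 452, with 0.12. In both, *S100A4*-/- replicate 2 was the highest library and the groups overlapped. *Ift43*, the lowest by value, was at 273 and 276 against 336 and 312, a log2 fold change of −0.24 (SE 0.12, limma, adjusted p = 0.295), with both *S100A4*-/- values below both WT values.

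Of the 5 motor genes, 0 passed at any fold by limma, edgeR or DESeq2, and 0 had an unadjusted p under 0.05 by limma. *Kif3a*, a motor subunit of the heterotrimeric kinesin that drives outward trains, had the highest value of the 48, at 5917 and 5943 against 5811 and 6280.3. Its log2 fold change was −0.03 (95% interval −0.13 to 0.07, limma, adjusted p = 0.845). *Kif3b*, its partner, was at 780.1 and 719.6 against 729 and 699, with 0.07 (limma, adjusted p = 0.738). *Dync2h1*, the heavy chain of the dynein of the return trains, was at 1139.8 and 1177 against 1174 and 1200.0, with −0.04, and its light intermediate chain *Dync2li1* at 176 and 219 against 217 and 214, with −0.13. *Kif17*, a kinesin that works as a pair of identical chains in sensory cilia, had 12, 3, 4 and 6 reads, in the order *S100A4*-/- then WT. It entered the test through 1 library only, its interval reached from −1.62 to 1.83, and no change in it was detectable at this depth. Reads of 3 or fewer were taken as not showing a gene, which covers counting error only.

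The 11 genes of the transition zone gave 0 calls in either direction at any fold by limma, edgeR or DESeq2, and 1 of them had an unadjusted p under 0.05 by limma. *Cc2d2a*, which encodes a protein of the gate, was at 463 and 418 against 524 and 504, a log2 fold change of −0.22 (SE 0.10, limma, unadjusted p = 0.0301, adjusted p = 0.210), with both *S100A4*-/- libraries below both WT libraries. *Ahi1*, the highest by value, was at 1195 and 1291 against 1319 and 1281, with −0.07. *Cep290*, which bridges the axoneme and the membrane, was at 368 and 279.7 against 322 and 318, with 0.01 (95% interval −0.25 to 0.26). Among the tectonics, *Tctn1* was at 163 and 197 against 150.4 and 143, with 0.28 (SE 0.16, limma, adjusted p = 0.379), while *Tctn2* and *Tctn3* were at 0.04 and 0.08. *Tctn1* shares exon bases on the opposite strand with *Hvcn1*, which was at 10.3 and 4.05 against 3.13 and 2.19. *Mks1*, whose loss causes Meckel syndrome, was at 122 and 126.7 against 148 and 127.0, with −0.14, and *Nphp4*, another protein of the gate, at 125 and 133 against 102 and 161, with 0.0053. Both *S100A4*-/- values of *Mks1* were below both WT values, though WT replicate 2 lay next to them, and the groups of *Nphp4* overlapped. In all, 9 of the 48 genes share exon bases with a gene on the opposite strand and 4 with a gene on the same strand.

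Levels were compared between genes per kilobase of exonic length, in WT lenses. *Arl3* at 1698 ± 36.2 (SD, n = 2) and *Kif3a* at 1686 ± 92.6 (SD, n = 2) did not differ beyond their spread. *Pde6d* followed at 1017 ± 65.3, *Ift20* at 858 ± 38.1, *Ift57* at 503 ± 5.82 and *Ift52* at 429 ± 15.8 (SD, n = 2 each). *Unc119* was the next at 335 ± 15.0 and *Rpgrip1* stood lower, at 60.0 ± 1.78 (SD, n = 2). *Bbs12* was at 12.7, and the lowest was *Kif17* at 1.17. The median was 65.1 over the 48 genes and 68.0 over all genes tested. With the length of the longest transcript in place of the union of exons, *Arl3*, *Kif3a*, *Pde6d* and *Ift20* kept the first 4 ranks, with *Arl3* at 3829 and *Kif3a* at 1913. *Unc119*, at 598, then ranked 5 in place of 7.

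**Figure D3:**
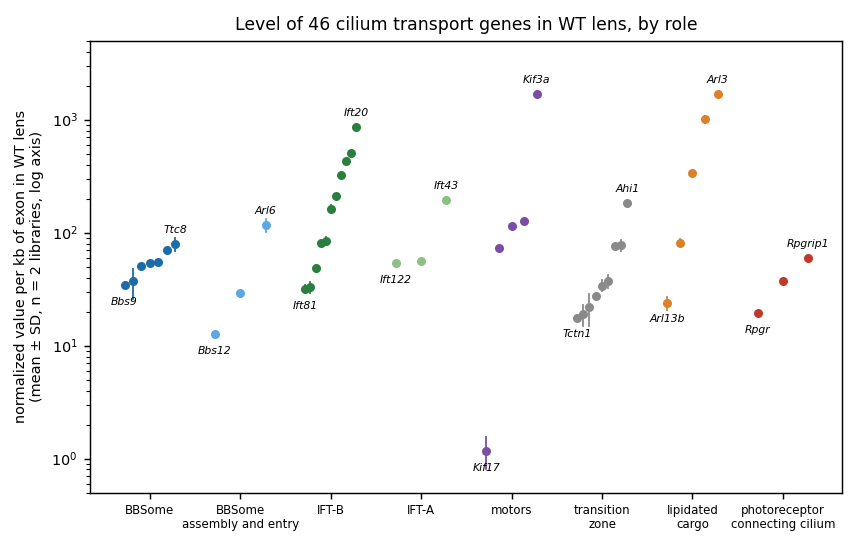
Normalized value per kilobase of exon in WT lenses (mean ± SD, n = 2 libraries, log axis) of 46 of the 48 genes, by role, with the highest and lowest shown of each role named. Levels span from 1.17 (*Kif17*) to 1698 (*Arl3*) and, among BBSome subunits, from 34.6 to 79.5.

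The motor chains of the outward kinesin were at unequal levels. *Kif3a* was 12.5 and 14.1 times the level of *Kif3b* per kilobase in the WT libraries and 11.9 and 12.98 times in the *S100A4*-/- libraries. The alternative partner *Kif3c*, named after its value was seen, gave ratios of 14.3 and 14.8 in WT, and the accessory subunit *Kifap3* 7.96 and 8.52. With the longest transcript as the length, the ratio to *Kif3b* was 14.2 and 16.0 in WT. The ratios did not separate the groups, as those for *Kif3b* overlapped.

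Other genes of the cilium were taken from a list outside the rule, with 57 of 59 listed genes tested. Their median log2 fold change was −0.01, as for all genes tested, and 5 were called higher and 0 lower by the 2-fold rule (3.65% and 0.0744% of all genes). The 5 were *Rp1*, *Rp1l1*, *Tulp1*, *Tub* and *Mak*, and *Rp1*, *Tulp1* and *Tub* had been named by the study from these libraries. *Rp1*, a microtubule protein of the photoreceptor axoneme, was at 604 and 475 against 87.7 and 101, a log2 fold change of 2.50 (SE 0.14, limma, adjusted p = 1.41e-16). *Rp1l1*, its relative, was at 301 and 278 against 51.2 and 41.6, with 2.62 (SE 0.19, limma, adjusted p = 1.28e-13). *Tulp1* was at 468 and 395 against 101 and 113, with 2.00, and *Tub* at 186 and 171 against 41.8 and 31.8, with 2.26, both members of the tubby family that carries membrane proteins into cilia. *Mak*, a kinase that limits ciliary length, was at 82.2 and 38.5 against 23.0 and 10.9, with 1.76 (SE 0.40, limma, adjusted p = 0.00279). *Mak* did not pass without *S100A4*-/- replicate 1 (adjusted p = 0.401) or without *S100A4*-/- replicate 2 (adjusted p = 0.0707), nor when limma had no trend of variance (adjusted p = 0.348). At any fold 1 gene was lower, *Spata7*, of the connecting cilium, at 689 and 758 against 852 and 891, with −0.27 (SE 0.08, limma, adjusted p = 0.0344). DESeq2 called 0 of the 57 lower at any fold. Since *Rp1* and *Tulp1* also stand in the rod list, the lists overlap by these genes.

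**Figure D4:**
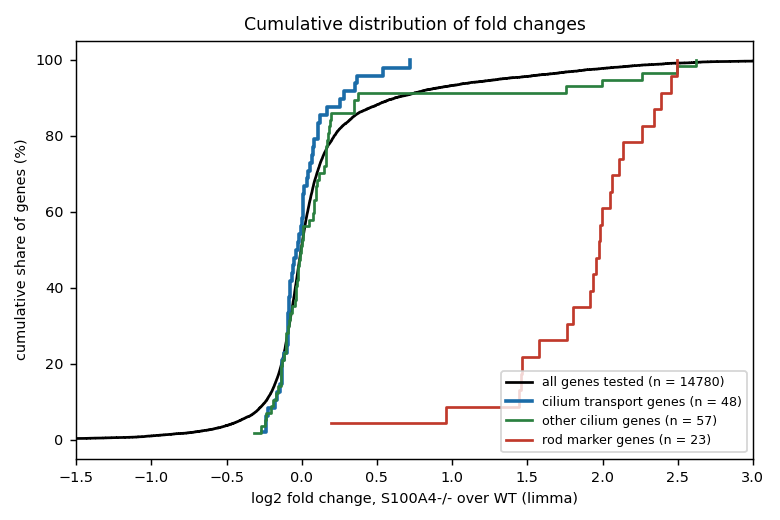
Cumulative share of genes (%) against log2 fold change, *S100A4*-/- over WT, for all 14780 genes tested, the 48 cilium transport genes, 57 other cilium genes and 23 rod marker genes. The cilium transport genes end at 0.72, the other cilium genes follow all genes up to the 5 called higher, and the rod genes have a median of 1.98.

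A promoter pattern that the choice of genes did not use was found in a few of the cilium transport genes. RFX factors, which act on ciliary genes, bind an X-box, an inverted repeat. It was searched for here as GTTNCC followed after 0 to 3 bases by GGNAAC, a pattern that reads the same on both strands. It was in 6 of the 50 promoters (12%), which belong to 6 of the 42 genes with a promoter, and in 0.804% of all 32851 promoters of the table, a description that was not tested. The 6 sites are shown because they carry this pattern in genes of IFT-B, the BBSome and the transition zone, with the matched letters in capitals and up to 8 bases on each side, 5′ to 3′ on the gene's strand, from RefSeq on GRCm38.p6.
Ift57, chr16:49699226-49699254, plus strand: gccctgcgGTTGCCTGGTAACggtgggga
Bbs7, chr3:36613489-36613518, minus strand: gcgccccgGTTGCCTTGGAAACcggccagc
Mks1, chr11:87853183-87853212, plus strand: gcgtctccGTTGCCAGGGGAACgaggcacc
Ahi1, chr10:20952560-20952589, plus strand: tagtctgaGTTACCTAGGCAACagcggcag
Tctn1, chr5:122264411-122264432, minus strand: ctgtgactGTTGCCCGGGCAAC
Tctn3, chr19:40612351-40612379, minus strand: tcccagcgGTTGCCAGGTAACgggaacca

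Distances are from the start around which the RefSeq promoter window was taken, which for some genes differs from the start of the gene model. The sites in *Ift57*, *Bbs7*, *Mks1* and *Tctn3* begin 60, 121, 24 and 140 bases before that start. Those in *Ahi1* and *Tctn1* begin 21 and 36 bases after it. The log2 fold changes of these 6 genes lay between −0.18 (*Ift57*) and 0.28 (*Tctn1*), and none passed the test at any fold by limma. Neither *Unc119* nor *Rpgrip1* held the pattern in the windows searched.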

How the data were processed

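Lens RNA pools gave stranded mRNA libraries, read from a single end in 1 lane. Trim Galore, STAR (against GRCm38) and HTSeq were used by the authors to trim, map and count reads of a single locus, and a gene needed 10 reads in a library to be deposited. The signal values they deposited are these counts divided by a DESeq2 size factor per library, and the versions of these tools are not given in the sources used here. All values (100%) came to whole reads within 0.02, so reads were recovered by division, with 0 columns left without a sample. Symbols were found for 14782 of 14924 genes, and gene models were those of GENCODE M21.

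The main test was limma (3.58.1, lmFit and eBayes with a trend) on log2(value + 1), in 14780 genes that reached 10 in 1 or more libraries, with Benjamini-Hochberg adjustment. A fold change is a difference of means on this scale, where the pseudocount draws low values together. The calls follow the study's thresholds of 2-fold and 0.05. edgeR (4.0.16, quasi-likelihood) and DESeq2 (1.42.0) on the recovered reads were alternatives, beside other pseudocounts (0.5 and 5), filters, scalings, a block and each library left out. On simulated data drawn for this comparison (14437 genes tested), limma called 95 of 100 genes changed 2-fold, 100 of 100 changed 4-fold and 7 unchanged genes at an adjusted p of at most 0.05. The changed genes had a mean value of at least 50, which *Bbs12* and *Kif17* do not reach. No fold threshold was applied there, so these shares do not hold for the 2-fold rule. Libraries are pools of lenses. The median chi-square per gene between replicates was 2.03 in *S100A4*-/- and 1.10 in WT, where sampling noise gives 0.455. Its expected split came from total reads and not from the size factors. It therefore mixes scaling with replicate spread, and the 2 groups cannot be compared by it. The members and the lists were chosen with earlier results of these data known. Values in every library are given for genes past the test and for the highest and lowest gene of each role, and other members are named with a fold change or value. Of the 48 genes, 2 are counted in every total but not reported here by name or plotted singly. No protein sequences were used here.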

Additional observations from a re-analysis of the deposited data

How the results depend on the processing

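The count of 0 cilium transport genes at least 2-fold higher or lower was the same under all 15 alternatives, and so was the 0 of those lower at any fold. The 2 genes higher at any fold, *Unc119* and *Rpgrip1*, became 0 when limma had no trend of variance, and 1 to 2 with a library left out. The log2 fold change of *Unc119* stayed between 0.49 and 0.59, with an adjusted p between 7.41e-12 and 0.104, past 0.05 in 14 of the 15. That of *Rpgrip1* stayed between 0.26 and 0.46, with an adjusted p between 1.26e-04 and 0.306, past 0.05 in 13. The median of the 48 genes was between −0.06 (quantile normalization) and −0.00 (equal totals).

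Over all genes, limma without the trend called 174 higher and 7 lower, and 29 marker genes of other cell types higher in place of 53. A mean value of at least 50 gave 281 higher and 6 lower, DESeq2 6 lower and quantile normalization 23 lower. With a library left out, 168 to 546 genes were higher, 4 to 13 lower, and 34 to 51 marker genes higher. The lowest of these came without *S100A4*-/- replicate 1, and without *S100A4*-/- replicate 2 the counts were 210 higher and 6 lower.

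Directions near zero turned. Under equal totals *Bbs5* was at 0.024 and *Kif3a* at 0.0024, and under quantile normalization *Bbs1* was at −0.010, *Kif17* at −0.50 and *Kif3a* at 0.014. With a library left out, *Arl6* ranged from −0.23 to 0.051, *Bbs1* from −0.13 to 0.14, *Bbs5* from −0.31 to 0.30, *Ift122* from −0.072 to 0.22, *Ift172* from −0.19 to 0.0084, *Kif17* from −0.63 to 0.85 and *Kif3a* from −0.083 to 0.029, none of them past the test. The cause of these changes was not tested.

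The replicate numbers are shared by pools of different animals, and the deviations of same-numbered libraries had a correlation of 0.0119 across genes. With the number as a replicate block, 2 cilium transport genes were higher at any fold, as without it, and 576 genes were called higher and 15 lower. Depth limits *Kif17*, with 3 to 12 reads a library.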
